A study of Mus musculus with 18 samples.

Results

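Germ cells of the testis carry their own copies of several enzymes that turn sugar into pyruvate and lactate. Such copies and related genes, 10 in all, were followed here in mouse testis RNA. They were chosen by name: Slc2a3, a glucose transporter; Aldoart1 and Aldoart2, aldolases; Gapdhs, Pgk2 and Eno4, enzymes of the lower part of glycolysis; Ldhc and Ldha, subunits of lactate dehydrogenase; Pdha2, a subunit of pyruvate dehydrogenase; and Gk2, which belongs to the glycerol kinase family. The table held 20979 genes with a single row, 13874 of these were tested, and all 10 chosen genes were among those tested. Ldha and Slc2a3 are not restricted to germ cells, and Ldha was kept as the general partner of Ldhc.

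The testes came from ICR mice, an outbred stock, aged 10 weeks, and 18 libraries of total RNA formed 6 groups of 3. The control group had no listed treatment, AOS mice received 10 mg/kg of an agent that the labels give only by that abbreviation, and HFD_STZ mice received a high fat diet together with STZ (streptozotocin, which destroys pancreatic beta cells). HFD_STZ_AOS mice received the diet, STZ and AOS at 10 mg/kg. HFD_STZ_AOS_FMT and HFD_STZ_control_FMT mice received the diet and STZ and then FMT, a transfer of fecal microbiota, named for AOS at 10 mg/kg or for control. The labels do not say whether each library came from a separate animal, so the p-values measure the spread between these libraries, which may be technical.

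Levels are RPKM (a unit inferred from the values), read counts scaled by gene length and by the library's total, which allow genes of different length to be compared. The sum over genes was 588081 to 646822 RPKM in a library, where 13022 to 13490 genes were at 1 RPKM or more. The spacing of low values implied 11500000 to 12400000 reads per library, a rough figure because the search was limited in advance to 10000000 to 20000000. Markers of elongating spermatids summed to 53410 to 70332 RPKM, of spermatocytes to 1133 to 1290, of Sertoli cells to 812.5 to 1047 and of Leydig cells to 2566 to 5356, so the labelled tissue had its defining transcripts in every library. Crisp1, an epididymal gene, lay above 100 RPKM in 4 libraries, namely control replicate 3 (158.77), HFD_STZ_AOS replicate 3 (156.69), HFD_STZ_AOS_FMT replicate 3 (164.71) and HFD_STZ_control_FMT replicate 2 (116.64).

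Glycolysis splits glucose into pyruvate and yields ATP without oxygen. In sperm much of it runs along the tail, where several enzymes are bound to the fibrous sheath, and loss of Gapdhs, Pgk2 or Ldhc in mice is known to impair sperm motility. Several of these genes are retrogenes, copies made from the spliced RNA of a parent gene. Many parent genes, such as Pgk1 and Pdha1, lie on the X chromosome, which is silenced during male meiosis. In whole tissue, fewer germ cells of a stage and less RNA per cell cannot be told apart.

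In the GENCODE vM21 annotation of GRCm38, the genome of build mm10, all 10 were protein coding genes. Pgk2 (chr17:40207015-40208640), Aldoart1 (chr4:72850583-72852634), Aldoart2 (chr12:55565239-55566896), Pdha2 (chr3:141210004-141212355) and Gk2 (chr5:97455142-97457021) had 1 exon in every annotated transcript. Gapdhs (chr7:30729775-30743681), Ldhc (chr7:46861203-46878142), Ldha (chr7:46841475-46855627), Eno4 (chr19:58943425-58971421) and Slc2a3 (chr6:122727809-122801640) had introns. Ldhc and Ldha lay on the same strand of chromosome 7. Of the 50-base windows of the longest transcript, 16.6% of those in Ldha also stood in other genes, most often in Gm5452, and 5.79% of those in Aldoart1 did, most often in Aldoa. Values of these 2 genes are therefore less certain, as reads of near-identical copies could be split between them. The share was 1.47% in Gk2, 1.45% in Slc2a3 and 0.311% in Aldoart2, and 0 in the other 5.

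Promoter windows are shown for Gapdhs, Aldoart2, Ldhc and Ldha, which made up 5 of the 6 pairs of genes whose levels correlated past the threshold between libraries (described further on), and for Pgk2, which was in none of those pairs. Each is the 250 bases before the most upstream start site in RefSeq (GRCm38.p6), read 5′ to 3′ on the gene's strand. Capitals mark matches on either strand to TGACG (the core of the cAMP response element), TGACGTCA (the full element, to which CREM, a regulator of spermatid genes, binds), TGATGTCA (a related octamer, added to the search after the Gapdhs window had been read), GGGCGG (a GC box) or CCAAT.
Gapdhs, chr7:30743682-30743931, minus strand: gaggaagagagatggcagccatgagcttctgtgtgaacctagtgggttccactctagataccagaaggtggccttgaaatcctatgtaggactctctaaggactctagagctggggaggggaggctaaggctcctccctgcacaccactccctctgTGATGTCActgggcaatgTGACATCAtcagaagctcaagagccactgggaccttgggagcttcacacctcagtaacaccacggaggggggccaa
Aldoart2, chr12:55564955-55565204, plus strand: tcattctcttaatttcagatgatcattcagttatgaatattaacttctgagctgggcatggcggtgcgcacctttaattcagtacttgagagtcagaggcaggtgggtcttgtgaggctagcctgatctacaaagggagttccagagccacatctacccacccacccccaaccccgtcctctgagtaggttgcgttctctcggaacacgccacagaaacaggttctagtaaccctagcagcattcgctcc
Ldhc, chr7:46861013-46861262, plus strand: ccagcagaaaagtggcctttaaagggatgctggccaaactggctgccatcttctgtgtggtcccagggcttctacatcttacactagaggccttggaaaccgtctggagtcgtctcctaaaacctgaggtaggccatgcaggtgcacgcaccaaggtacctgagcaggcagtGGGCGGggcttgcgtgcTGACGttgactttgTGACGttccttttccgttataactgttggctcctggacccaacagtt
Ldha, chr7:46845554-46845803, plus strand: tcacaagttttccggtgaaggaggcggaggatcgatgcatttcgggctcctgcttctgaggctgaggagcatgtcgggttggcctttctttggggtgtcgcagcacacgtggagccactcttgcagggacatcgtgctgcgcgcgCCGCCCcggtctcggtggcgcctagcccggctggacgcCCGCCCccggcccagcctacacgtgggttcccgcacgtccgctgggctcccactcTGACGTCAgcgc
Pgk2, chr17:40208610-40208859, minus strand: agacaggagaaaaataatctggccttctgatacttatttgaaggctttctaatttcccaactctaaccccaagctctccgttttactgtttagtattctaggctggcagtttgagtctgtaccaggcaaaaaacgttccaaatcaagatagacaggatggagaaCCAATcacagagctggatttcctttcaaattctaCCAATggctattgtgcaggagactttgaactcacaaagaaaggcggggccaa

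The Ldhc window held 2 TGACG matches, whose first bases lay 61 and 47 bases before the start site, and a GC box 78 bases before it. The Ldha window held the full TGACGTCA 12 bases before the start, which contains 2 overlapping TGACG matches, and GC boxes at 105 and 67 bases. Gapdhs had TGATGTCA at 94 and 76 bases before the start, once on each strand. Pgk2 had CCAAT at 86 and 52 bases. Aldoart2 had none of the 5 motifs in its window, and neither did Eno4, Pdha2 or Gk2, the other genes with an entry. Of all 32851 RefSeq windows of this length, 17.8% held TGACG, 1.55% TGACGTCA, 2.93% TGATGTCA, 32.7% GGGCGG and 33.8% CCAAT. Start sites differ between RefSeq and GENCODE. The Ldhc and Pgk2 windows run into the genes as placed by GENCODE, and the Ldha window lies inside its gene. Matches in these windows therefore need not lie before the start of transcription. A match of letters is not a shown binding site.

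The 10 genes spanned a wide range of levels, and 9 of them varied little between libraries. Ldhc, the germ cell subunit of lactate dehydrogenase, was highest, at 2134.48 to 2582.64 RPKM over the 18 libraries with a median of 2377, and ranked 12 among all genes tested. Gapdhs, the spermatid form of glyceraldehyde-3-phosphate dehydrogenase, followed at 1019.51 to 1231.49 with a median of 1135 and rank 37. These ranges did not overlap with each other or with that of any other of the 10 genes.

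Pgk2, phosphoglycerate kinase of late germ cells, lay at 535.19 to 655.14 RPKM with a median of 584.4, and Ldha at 506.62 to 567.26 with a median of 534.3, so that these neighbours overlapped. Gk2 stood at 325.18 to 374.82 and Slc2a3 at 261.9 to 325.05, ranges that lay side by side without overlap. Aldoart2 stood at 223.48 to 258.22 RPKM, below every Slc2a3 value. Pdha2, the autosomal E1 alpha subunit of pyruvate dehydrogenase, stood at 85.31 to 95.06 and Aldoart1 at 71.81 to 81.82. Eno4, an enolase of the sperm tail, was lowest at 9.93 to 26.22 RPKM with a median of 19.05. Together the 10 genes held 0.897% to 0.966% of the RPKM sum of a library.

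The coefficient of variation over the 18 libraries was 3.29% to 5.96% for 9 of the genes, against a median of 6.56% over the 6409 tested genes with a mean of at least 10 RPKM. The 9 genes had means of 76.69 to 2394 RPKM, and no median over genes of similar level was computed. Eno4 was the exception at 24.6%. Its values were 18.78, 13.60 and 23.67 RPKM in control, 13.12, 14.36 and 19.30 in AOS, and 13.61, 22.01 and 18.51 in HFD_STZ. They were 18.80, 14.24 and 9.93 in HFD_STZ_AOS, 20.25, 19.87 and 20.61 in HFD_STZ_AOS_FMT, and 26.22, 25.78 and 21.24 in HFD_STZ_control_FMT. The spread of Eno4 within control, AOS, HFD_STZ and HFD_STZ_AOS was wide, and the 6 libraries of the 2 transfer groups lay at or above 19.87 RPKM.

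**Figure D1:**
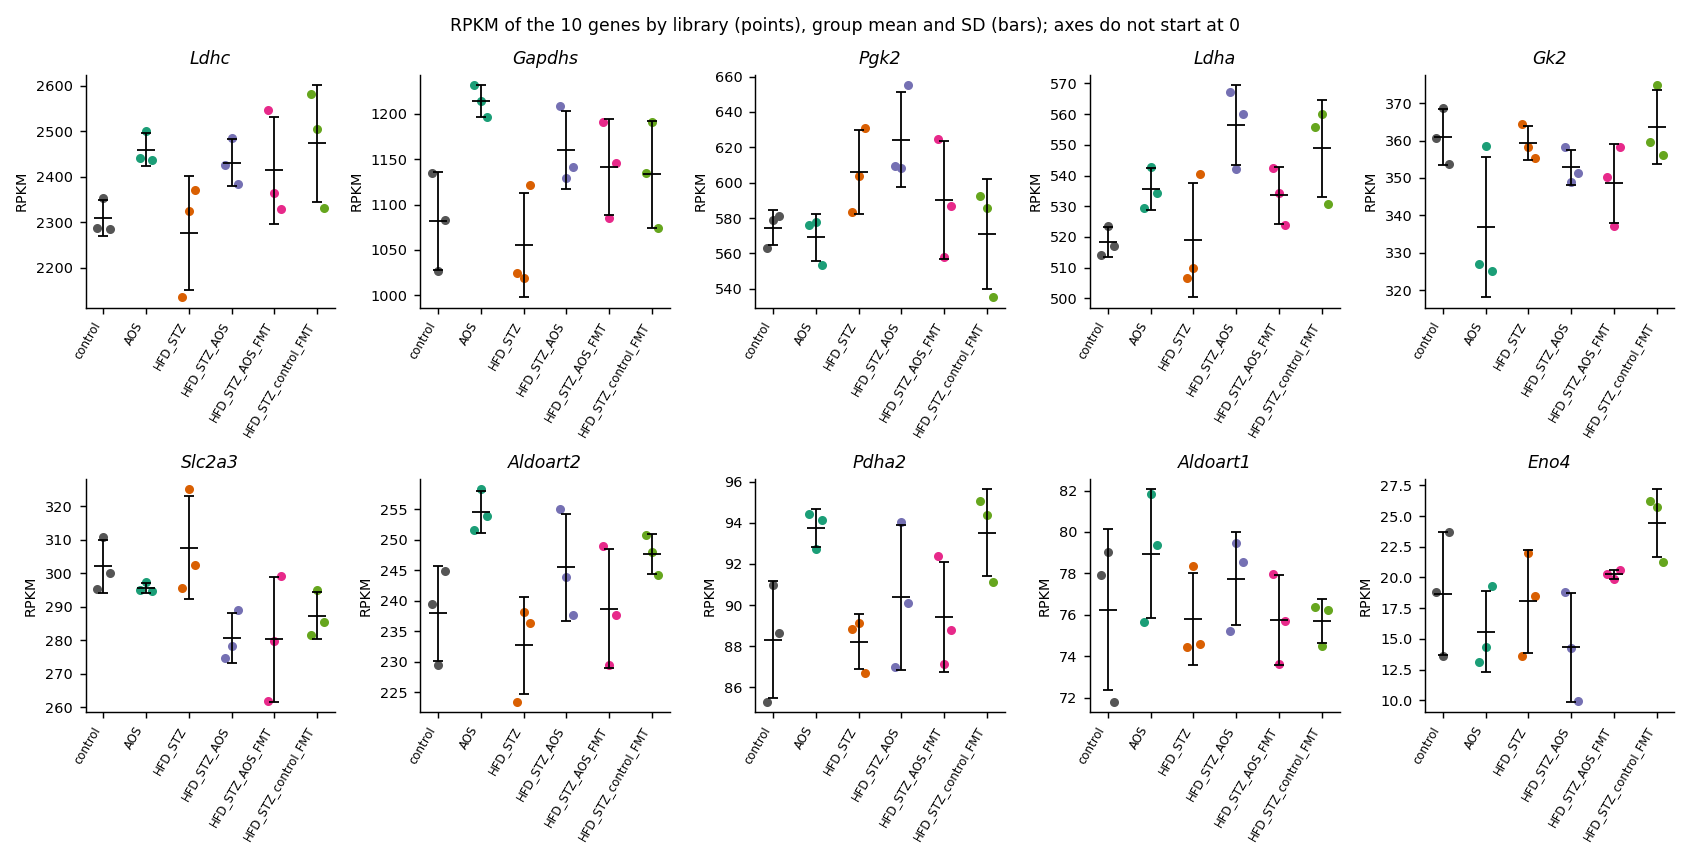
RPKM (vertical axis, not starting at 0) of each of the 10 genes in each library (points, in the order of the replicate numbers) by group, with the group mean and SD (n = 3, bars). Genes are ordered by mean level from Ldhc to Eno4; the 3 AOS libraries lie above the 3 control libraries for Ldhc, Gapdhs, Ldha, Aldoart2 and Pdha2.

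Genes of the 10 were set beside their general counterparts by the ratio of RPKM within a library, as mean ± SD over the 18 libraries. Levels were far above those of the counterpart for Pgk2 (56.5 ± 5.11 times Pgk1), Pdha2 (36.7 ± 5.29 times Pdha1) and Ldhc (32.6 ± 2.57 times Ldhb). Slc2a3 was 90.4 ± 9.61 times Slc2a1, another glucose transporter. Gk2 was 572 ± 213 times Gk, a ratio that is imprecise because Gk lay at 0.35 to 1.41 RPKM. Gapdhs was 5.58 ± 0.462 times Gapdh and Ldhc 4.47 ± 0.138 times Ldha. For 3 genes the order was the other way, with Aldoart2 at 0.767 ± 0.032 and Aldoart1 at 0.243 ± 0.0112 of Aldoa, and Eno4 at 0.107 ± 0.0261 of Eno1. Of the counterparts, only Ldha was examined for sequence shared with other genes. Values of the rest may be off where reads were split between copies, so the ratios are uncertain.

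By group, the ratio of Gapdhs to Gapdh was 6.35 ± 0.232 in AOS and 5.44 ± 0.019 in control, and 5.36 ± 0.297 in HFD_STZ_AOS and 5.17 ± 0.13 in HFD_STZ (n = 3 each). All 3 AOS libraries, at 6.11 to 6.58, lay above the 18-library median of 5.47 and above every control library. The HFD_STZ_AOS libraries, at 5.06 to 5.65, overlapped with the HFD_STZ libraries, at 5.04 to 5.3. Ldhc to Ldha lay between 4.37 ± 0.185 in HFD_STZ_AOS and 4.59 ± 0.0301 in AOS. These ratios are a description, and no test was made of them.

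**Figure D2:**
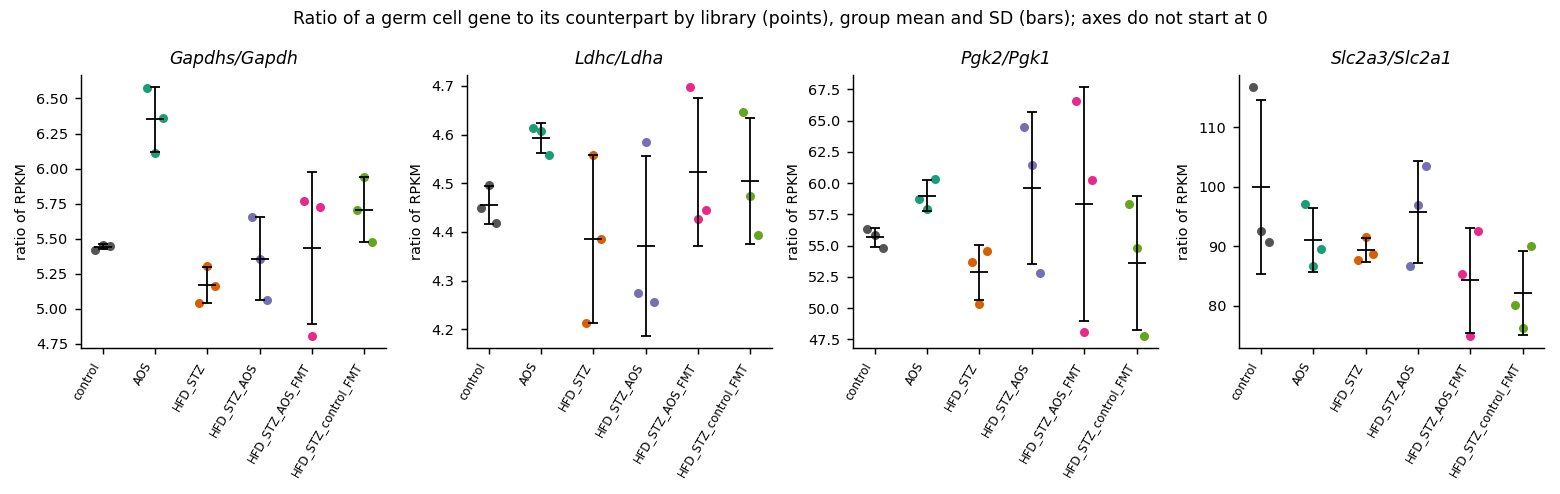
Ratio of RPKM within a library (vertical axis, not starting at 0) of a germ cell gene to its counterpart, by group, with points for libraries and bars for the group mean and SD (n = 3). The Gapdhs to Gapdh ratio is 6.11 to 6.58 in the 3 AOS libraries and 5.42 to 5.46 in the 3 control libraries.

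The effect of AOS was read with and without the diet and STZ by setting the 6 libraries of AOS and HFD_STZ_AOS against the 6 of control and HFD_STZ (the main effect of AOS). Gapdhs was the 1 gene of the 10 that passed, and it was higher with AOS. Differences are in log2(RPKM + 1), with the standard error, from limma's moderated test over all 13874 genes with Benjamini-Hochberg adjustment and a threshold of 0.05. The test called 2.34% of all genes in this comparison, 180 higher and 145 lower.

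Gapdhs RPKM was 1231.49, 1213.97 and 1196.59 in AOS and 1134.45, 1026.60 and 1083.23 in control. With the diet and STZ it was 1208.97, 1129.25 and 1141.52 in HFD_STZ_AOS and 1024.65, 1019.51 and 1121.03 in HFD_STZ. All 3 treated libraries lay above all 3 of their own controls in both settings, and over both settings 5 of the 6 treated libraries lay above all 6 others. The means were 1187 ± 41.7 and 1068 ± 51.8 RPKM (n = 6 each), a log2 difference of 0.15 ± 0.04 (95% interval 0.07 to 0.23, adjusted p = 0.046 by limma). The call was near the threshold: adjusted p was 0.0611 with libraries scaled by median ratios, and when single libraries of the 4 groups were left out it passed in 1 of 12 fits, without HFD_STZ replicate 3 (0.0307), and lay between 0.051 and 0.117 without any other. Without the 4 libraries high in Crisp1 the difference was 0.16 ± 0.04 with an adjusted p of 0.0869.

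The other 9 genes did not pass. At an unadjusted p under 0.05, however, 7 of the 10 genes stood out, 5 with higher and 2 with lower values, against 20.7% of all genes (8.59% higher and 12.1% lower). This count is not adjusted for the number of genes, and the genes were not chosen independently of these data.

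Ldhc RPKM was 2442.01, 2501.22 and 2436.33 in AOS against 2287.28, 2354.22 and 2284.60 in control, and 2424.95, 2485.63 and 2383.25 in HFD_STZ_AOS against 2134.48, 2325.07 and 2370.25 in HFD_STZ. All 6 libraries of AOS and HFD_STZ_AOS lay above all 6 of control and HFD_STZ, as 1.16% of all genes did. The log2 difference was 0.09 ± 0.03 (adjusted p = 0.137 by limma). The transfer groups were outside this comparison, with Ldhc at 2329.24 to 2547.92 RPKM in HFD_STZ_AOS_FMT and 2332.01 to 2582.64 in HFD_STZ_control_FMT. Ldha had means of 546 ± 14.7 and 518.6 ± 12.2 RPKM (n = 6 each), a difference of 0.07 ± 0.02 with an adjusted p of 0.103 by limma, and 4 of 6 libraries lay above all the others.

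Aldoart2 RPKM was 251.55, 258.22 and 253.87 in AOS against 239.42, 229.52 and 244.86 in control, and 254.95, 243.89 and 237.64 in HFD_STZ_AOS against 223.48, 238.13 and 236.39 in HFD_STZ. The groups overlapped with the diet and STZ and not without them. Its main effect was 0.09 ± 0.03 (adjusted p = 0.0985 by limma). Pdha2, at 92.07 ± 2.96 against 88.27 ± 2.0 RPKM (n = 6 each), differed by 0.06 ± 0.03 with an adjusted p of 0.214 by limma.

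The 2 genes with lower values were the transporter Slc2a3 and the kinase Gk2. Slc2a3 was at 288.2 ± 9.49 against 304.9 ± 11.4 RPKM (n = 6 each), a difference of -0.08 ± 0.03 with an adjusted p of 0.174 by limma. Gk2 was at 344.9 ± 15.1 against 360.2 ± 5.66 RPKM (n = 6 each), a difference of -0.06 ± 0.03 with an adjusted p of 0.211 by limma. For Gk2, 2 AOS libraries were low, at 326.97 and 325.18 RPKM, and the third was at 358.62, within the range of the control libraries.

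Pgk2 (0.01 ± 0.04), Aldoart1 (0.04 ± 0.03) and Eno4 (-0.28 ± 0.15) had adjusted p values of 0.314 to 0.859 by limma. The 95% interval for Pgk2 reached from -0.06 to 0.09 and that for Eno4 from -0.61 to 0.04, so the spread of Eno4 left room for a much larger difference than that of Pgk2.

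Markers of germ cell stages and of other cell types were read in the same comparison, in which 2.34% of all genes were called. The 11 markers of elongating spermatids, none at 0 in every library, summed to 60943 to 69179 RPKM in the libraries with AOS and 53410 to 60516 in those without. Of the 11, 9 had higher and 2 lower values, and 3 passed as higher. These were Tnp1 (0.25 ± 0.06, adjusted p = 0.0409), Tnp2 (0.29 ± 0.06, adjusted p = 0.0277) and Prm3 (0.35 ± 0.07, adjusted p = 0.0326), which encode packaging proteins of sperm chromatin or their relatives. The 10 markers of spermatocytes summed to 1133 to 1233 against 1179 to 1290 RPKM, 2 had higher and 8 lower values, and 2 passed as lower, Sycp1 (-0.25 ± 0.05, adjusted p = 0.0275) and Sycp2 (-0.20 ± 0.04, adjusted p = 0.0235). Of 11 round spermatid markers 8 had higher and 3 lower values, and 1 passed as higher, Tssk2 (0.14 ± 0.03, adjusted p = 0.0409). The 7 markers of Leydig cells summed to 2566 to 4163 against 3510 to 4505 RPKM. Of these, 0 had higher and 7 lower values (median difference -0.25), 3 at an unadjusted p under 0.05 by limma. For red cells (median difference -0.56), macrophages and leukocytes, and endothelial cells, all 4 markers tested in each list had lower values. Higher values were found in 4 of 4 adipose, 6 of 6 epididymal, 7 of 10 Sertoli, 4 of 5 spermatogonial and 1 of 4 peritubular markers. In these lists 0 passed. The part of these markers in the difference of Gapdhs was not tested. With control replicate 2, AOS replicate 1, HFD_STZ replicate 2 or HFD_STZ_AOS replicate 1 left out alone, this comparison called 0 of all 13874 genes by limma, the markers included, while 2375 to 2432 genes had an unadjusted p under 0.05.

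**Figure D3:**
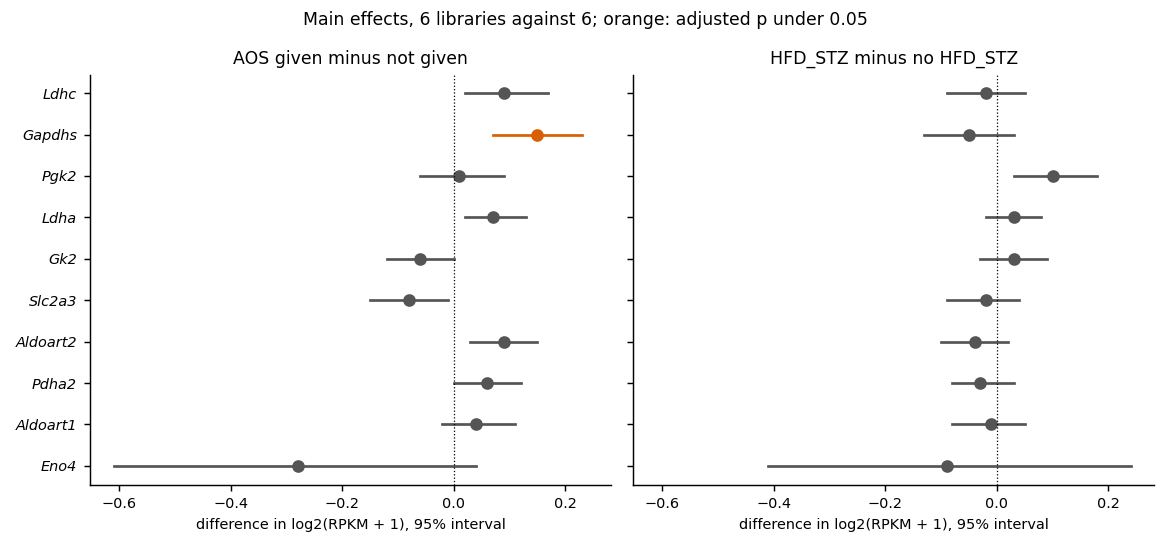
Difference in log2(RPKM + 1) with its 95% interval (horizontal axis) for each of the 10 genes, for 6 libraries with AOS minus 6 without (left) and 6 libraries with the diet and STZ minus 6 without (right). Orange marks an adjusted p under 0.05, which is Gapdhs for AOS at 0.15; Eno4 has the widest intervals.

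Without the diet and STZ, AOS against control gave 0 calls among the 10 genes and 0.0% of all genes. The 4 genes with an unadjusted p under 0.05 (13.9% of all genes) were Gapdhs at 0.17 ± 0.05, Aldoart2 at 0.10 ± 0.04, Pdha2 at 0.09 ± 0.04 and Gk2 at -0.10 ± 0.04. The adjusted p of the 10 genes lay between 0.216 and 0.923. In 5 genes the 3 AOS libraries lay above the 3 control libraries, which 7.76% of all genes did. Pdha2, for example, was 94.44, 92.71 and 94.15 RPKM in AOS and 85.31, 91.00 and 88.65 in control.

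On the diet and STZ, HFD_STZ_AOS against HFD_STZ also gave 0 calls, with 0.0% of all genes called. The 3 genes with an unadjusted p under 0.05 (12.5% of all genes) were Ldha at 0.10 ± 0.03, Gapdhs at 0.14 ± 0.05 and Slc2a3 at -0.13 ± 0.05, with adjusted p values of 0.266, 0.303 and 0.272 by limma. Ldha RPKM was 567.26, 542.07 and 560.05 against 506.62, 509.96 and 540.47. Slc2a3 RPKM was 274.75, 278.36 and 288.89 against 295.51, 325.05 and 302.41. Neither gene's groups overlapped; Gapdhs, Ldhc and Ldha were higher without overlap, as 7.37% of all genes were, and Slc2a3 was lower without overlap, as 9.8% were.

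Whether AOS acted differently with and without the diet and STZ was tested as an interaction. It called 0 of the 10 genes and 0.0% of all genes, and 0 of the 10 had an unadjusted p under 0.05, against 4.61% of all genes. For Gapdhs the interaction was -0.03 ± 0.07 (95% interval -0.19 to 0.13), for Slc2a3 -0.10 ± 0.07 and for Ldha 0.05 ± 0.05. Apart from Eno4, the intervals of the 10 genes stayed within -0.24 to 0.21.

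The diet and STZ themselves, HFD_STZ against control, gave 0 calls among the 10 genes and 0.0% of all genes, and 0 of the 10 had an unadjusted p under 0.05 (8.3% of all genes). Apart from Eno4, the differences ran from -0.04 to 0.08 and their 95% intervals from -0.15 to 0.18. Pgk2 had the largest, at 583.44, 603.68 and 631.04 RPKM in HFD_STZ and 563.13, 578.92 and 581.29 in control. These values did not overlap, as was the case in this direction for 11.7% of all genes, and the difference was 0.08 ± 0.05 with an adjusted p of 0.725 by limma.

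With both AOS settings combined, 6 libraries with the diet and STZ against 6 without (the main effect of HFD_STZ), 0 of the 10 genes passed and 2.85% of all genes did. Pgk2 was again the gene that stood out, and the 1 with an unadjusted p under 0.05 (18.8% of all genes, 14.3% with higher values). Its RPKM was 609.36, 608.06 and 655.14 in HFD_STZ_AOS and 575.83, 577.75 and 553.47 in AOS. All 6 libraries of HFD_STZ and HFD_STZ_AOS, from 583.44, lay above all 6 of control and AOS, up to 581.29. In this direction 1.61% of all genes showed such a lack of overlap. The means were 615.1 ± 24.8 and 571.7 ± 11.0 RPKM (n = 6 each), a log2 difference of 0.10 ± 0.04 (95% interval 0.03 to 0.18, adjusted p = 0.115 by limma). The median difference over all genes was 0.03 in the same comparison. The transfer groups, also on the diet and STZ, were outside this comparison. Their Pgk2 values were 558.18 to 624.94 RPKM (HFD_STZ_AOS_FMT) and 535.19 to 592.37 (HFD_STZ_control_FMT), and both ranges overlapped with that of control. The other 9 genes had adjusted p values up to 0.843, with Gapdhs at -0.05 ± 0.04 and Ldhc at -0.02 ± 0.03.

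Markers of several cell types stood beside this comparison. The 10 Sertoli cell markers summed to 905.7 to 930.3 RPKM in HFD_STZ and 924.9 to 1006 in HFD_STZ_AOS, against 812.7 to 896.1 in control and 812.5 to 888.6 in AOS, and 1 of the 10 passed as higher, Defb19 (0.21 ± 0.05, adjusted p = 0.0411). The 5 red cell markers summed to 152 to 211 and 107.6 to 174.9 RPKM against 99.79 to 140.6 and 66.44 to 98.76 in the same order of groups. All 4 of the red cell markers tested had higher values, with a median difference of 0.87, and 1 passed, Hba-a1 (0.61 ± 0.14, adjusted p = 0.0379), an alpha globin gene with a near-identical copy. Of 11 round spermatid markers 2 had higher and 9 lower values, and 1 passed as lower, Acr (-0.13 ± 0.03, adjusted p = 0.0478), the acrosomal protease acrosin. Of 11 elongating spermatid markers 3 had higher and 8 lower values, and 1 passed as lower, Car2 (-0.23 ± 0.05, adjusted p = 0.0385), a carbonic anhydrase. The part of these markers in the differences of single genes in this comparison was not tested.

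Both transfer groups carried the diet and STZ and were compared with HFD_STZ, so these 2 comparisons share their controls. HFD_STZ_AOS_FMT against HFD_STZ gave 0 calls among the 10 genes, with 0.0144% of all genes called. At an unadjusted p under 0.05 stood 2 genes (14.5% of all genes): Gapdhs, at 1191.05, 1085.71 and 1146.02 RPKM against 1024.65, 1019.51 and 1121.03, and Slc2a3, at 261.90, 279.78 and 299.04 against 295.51, 325.05 and 302.41. Both pairs of groups overlapped. The differences were 0.11 ± 0.05 and -0.14 ± 0.05, with adjusted p values of 0.336 and 0.238 by limma.

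HFD_STZ_control_FMT against HFD_STZ gave 0 calls, with 0.00721% of all genes called. At an unadjusted p under 0.05 stood 4 genes (16.2% of all genes), each with higher values (6.06% of all genes): Ldhc at 0.12 ± 0.05, Aldoart2 at 0.09 ± 0.04, Ldha at 0.08 ± 0.03 and Pdha2 at 0.08 ± 0.04. Ldhc RPKM was 2582.64, 2505.56 and 2332.01 against 2134.48, 2325.07 and 2370.25, with 1 transfer library inside the HFD_STZ range. Aldoart2, at 250.69, 247.93 and 244.23 RPKM, and Pdha2, at 95.06, 94.38 and 91.14, lay above all 3 HFD_STZ libraries, as 8.0% of all genes did, and Slc2a3, at 281.49, 295.05 and 285.46, lay below them, as 16.0% did. Eno4 differed by 0.44 ± 0.22 with a 95% interval from -0.03 to 0.90 and an adjusted p of 0.333 by limma.

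In both comparisons 0 of the cell type markers passed by limma. Elongating spermatid markers summed to 59399 to 70332 RPKM in HFD_STZ_AOS_FMT and 59819 to 65578 in HFD_STZ_control_FMT, against 54702 to 60516 in HFD_STZ. Of the 11, 10 and 9 had higher values in the respective transfer group, and 5 in each comparison had higher values at an unadjusted p under 0.05. The 5 adipose markers summed to 51.44 to 143.3 and 42.1 to 146.1 RPKM against 14.08 to 26, and all 4 tested had higher values in both, with median differences of 1.27 and 1.21 and 3 of the 4 at an unadjusted p under 0.05 in each. The 10 epididymal markers summed to 28.09 to 328.5 and 8.8 to 205.7 RPKM against 5.46 to 7.26, so that each transfer library lay above the HFD_STZ range. Of the 4 red cell markers tested, all had lower values in both, with median differences of -1.02 and -0.63. The part of these markers in the values of the 10 genes was not tested.

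Between the transfer groups, HFD_STZ_AOS_FMT against HFD_STZ_control_FMT, 0 of the 10 genes passed, with 0.0216% of all genes called, and 0 had an unadjusted p under 0.05 (4.58% of all genes). Apart from Eno4, differences lay between -0.06 and 0.05 and the intervals within -0.14 to 0.15. Gapdhs was at 1141 ± 52.9 and 1133 ± 58.7 RPKM (n = 3 each), a difference of 0.01 ± 0.05. Eno4 was lower without overlap (20.24 ± 0.37 against 24.41 ± 2.76 RPKM, n = 3 each), as 3.27% of all genes were, with a difference of -0.25 ± 0.22 and an adjusted p of 0.999 by limma.

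The F test among the 6 groups called 0 of the 10 genes and 0.0432% of all genes. Its count over all genes, 6, was 157 without HFD_STZ_AOS replicate 2, 117 without HFD_STZ_AOS_FMT replicate 1 and 36 without AOS replicate 2, and 0 of the 10 genes were called in any of these fits. At an unadjusted p under 0.05 were 4 of the 10 (21.1% of all genes): Gapdhs (adjusted p = 0.156), Eno4 (0.209), Ldha (0.23) and Slc2a3 (0.232). The range of the group means was 0.20 for Gapdhs and 0.77 for Eno4 on the log2 scale.

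Some of the 10 genes rose and fell together from library to library. Correlations of log2(RPKM + 1) over the 18 libraries were computed for all 45 pairs, with 100000 permutations each and Benjamini-Hochberg adjustment over the pairs. Pearson's r ran from -0.56 to 0.80 with a median of 0.10, and 6 pairs passed at 0.05, of which 4 also passed by Spearman's rho. All values of a library share its total, and the groups differ in treatment, so r was also computed on deviations from the group means. The permutations moved libraries across groups. The share of other gene pairs that would pass was not computed, so the count does not set these genes apart from others.

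Gapdhs and Aldoart2 were most alike, with r = 0.80 (permutation p = 0.0001, adjusted p = 0.0045) and rho = 0.76 (p = 0.00037, adjusted p = 0.00832). Without the 2 libraries farthest from the Gapdhs median r was 0.78, and on deviations from group means it was 0.63. For each pair the 2 libraries left out were those farthest from the median of only 1 of its genes. That gene was the first of the pair in the order Gapdhs, Pgk2, Ldhc and Ldha, so the 2 libraries can differ between pairs. Libraries extreme only for the other gene were kept. Ldhc and Ldha had r = 0.74 (permutation p = 0.00045, adjusted p = 0.0096) and rho = 0.82 (p = 6e-05, adjusted p = 0.0027), with 0.65 without the 2 libraries and 0.64 on deviations. For the 2 subunits of lactate dehydrogenase r was thus of similar size inside the groups.

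Gapdhs and Ldhc had r = 0.67 (permutation p = 0.00196, adjusted p = 0.0202) and rho = 0.67 (p = 0.00304, adjusted p = 0.0342), with 0.56 without the 2 libraries and 0.43 on deviations. Ldhc and Pdha2 had r = 0.67 (permutation p = 0.00225, adjusted p = 0.0202) and rho = 0.71 (p = 0.00146, adjusted p = 0.0219), with 0.70 and 0.44. The remaining 2 pairs passed by r and not by rho. Ldhc and Aldoart2 had r = 0.72 (permutation p = 0.00064, adjusted p = 0.0096) and rho = 0.62 (p = 0.00746, adjusted p = 0.0559), with 0.59 and 0.56. Gapdhs and Ldha had r = 0.63 (permutation p = 0.00535, adjusted p = 0.0401) and rho = 0.63 (p = 0.00572, adjusted p = 0.0515), with 0.45 and 0.61.

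Ldha and Aldoart2 did not pass, with r = 0.53 (permutation p = 0.0224, adjusted p = 0.126) and rho = 0.51 (p = 0.0308, adjusted p = 0.154), 0.32 without the 2 libraries and 0.37 on deviations.

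Pgk2 was in none of the pairs that passed. Its r with Gapdhs was 0.12 (permutation p = 0.635, adjusted p = 0.84; rho = 0.03, p = 0.896) and with Ldhc 0.22 (permutation p = 0.384, adjusted p = 0.691; rho = 0.25, p = 0.324). Without the 2 farthest libraries these were 0.20 and 0.24, and on deviations from group means they were 0.53 and 0.68. With Ldha its r was 0.41 (permutation p = 0.0882, adjusted p = 0.305; rho = 0.41, p = 0.0902), 0.31 without the 2 libraries and 0.65 on deviations. On deviations Pgk2 was therefore as close to Ldhc and Ldha as the pairs that passed were to each other, at 0.43 to 0.64. The highest r on deviations among the 45 pairs was that of Aldoart2 and Eno4, at 0.75, with 0.24 over the 18 libraries. Values on deviations were not tested. Slc2a3 ran the other way from Ldha, with r = -0.56 (permutation p = 0.0159, adjusted p = 0.102) and rho = -0.59 (p = 0.0109, adjusted p = 0.07), -0.52 without the 2 libraries and -0.18 on deviations.

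**Figure D4:**
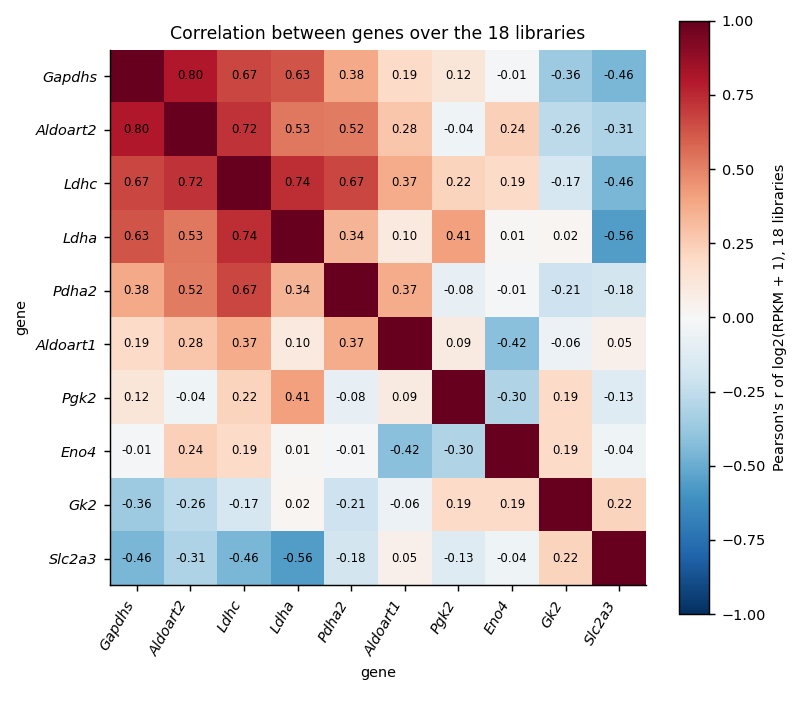
Pearson's r of log2(RPKM + 1) over the 18 libraries for each pair of the 10 genes (both axes list the genes; colour runs from -1 in blue to 1 in red). Among Gapdhs, Aldoart2, Ldhc and Ldha r is 0.63 to 0.80 except for Ldha with Aldoart2 (0.53, which did not pass), Ldhc has r = 0.67 with Pdha2, and Slc2a3 has r down to -0.56.

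Among all other genes tested, those most like the mean of the 10 (each gene centred and scaled) over the 18 libraries were Cox8c, a testis subunit of cytochrome c oxidase, at r = 0.87, Iqcf1 at 0.85, and Actrt2, Mpc2 and Col20a1 at 0.82. Single genes had closer partners: Gapdhs with Tcp11, a testis gene of sperm function, at 0.93, Ldhc with Spata24 at 0.91, Aldoart2 with 4933411K16Rik at 0.89, Slc2a3 with Ssh2 at 0.88 and Eno4 with Tmbim7 at 0.84. Ldha was closest to Rplp0, a ribosomal protein gene, at 0.91 and Pgk2 to Galk1, galactokinase, at 0.82. Each is the highest among all tested genes, so these values describe and carry no test.

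The rest of the pathway was read from lists of genes that leave out the 10. Of 22 general glycolysis genes 18 were tested. The most abundant were Pgam2, a phosphoglycerate mutase, at a median of 1113 RPKM, Hk1, a hexokinase, at 535.3 and Aldoa at 317.3, while Pgk1 was at 10.27. Counts over these lists are given for the main effects. In the main effect of HFD_STZ 1 of the 18 passed as higher and 1 as lower, and in the main effect of AOS 0 passed. Of all 13874 genes, 333 passed as higher and 63 as lower in the former, and 180 and 145 in the latter.

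Tpi1, triosephosphate isomerase, was the higher gene. Its RPKM was 155.58 to 163.76 in control, 155.13 to 162.62 in AOS, 181.79 to 182.24 in HFD_STZ and 181.98 to 232.96 in HFD_STZ_AOS. All 6 libraries of HFD_STZ and HFD_STZ_AOS lay above all 6 of control and AOS, as 1.61% of all genes did. The means were 193.6 ± 20.7 and 159.2 ± 3.65 (n = 6 each), a log2 difference of 0.27 ± 0.04 with an adjusted p of 0.0111 by limma. It passed under all 20 alternatives run. The marker values given for this comparison, those of Sertoli and red cells among them, stand beside Tpi1 too, and their part in its difference was not tested. In the transfer groups Tpi1 was at 161.8 ± 5.82 (HFD_STZ_AOS_FMT) and 172.8 ± 6.64 RPKM (HFD_STZ_control_FMT, n = 3 each).

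Gpi1, glucose-6-phosphate isomerase, was lower with the diet and STZ, at 226.5 ± 10.3 against 246.4 ± 5.68 RPKM (n = 6 each), a difference of -0.12 ± 0.03 with an adjusted p of 0.0438 by limma. The groups were narrowly apart, up to 237.19 RPKM in HFD_STZ and HFD_STZ_AOS and from 238.35 in control and AOS. In the transfer groups, also on the diet and STZ, Gpi1 was at 243.6 ± 6.27 (HFD_STZ_AOS_FMT) and 238.7 ± 7.55 RPKM (HFD_STZ_control_FMT, n = 3 each). The share of all genes that were lower without overlap was not computed here. The call held in 6 of 20 alternatives. Adjusted p was 0.169 without the libraries high in Crisp1, and it lay between 0.0691 and 0.118 without any single library other than HFD_STZ replicate 2 or HFD_STZ_AOS replicate 2.

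Of 15 genes of the pyruvate dehydrogenase complex, its regulators and the pyruvate carrier, 13 were tested. In the main effect of AOS 1 passed as higher and 0 as lower, against 180 and 145 of all 13874 genes. Mpc2, a subunit of the mitochondrial pyruvate carrier, was at 204.3 ± 6.03 with AOS and 174.4 ± 8.69 RPKM without (n = 6 each), a difference of 0.23 ± 0.05 with an adjusted p of 0.0277 by limma. All 6 libraries of AOS and HFD_STZ_AOS lay above all 6 of control and HFD_STZ, as 1.16% of all genes did. The transfer groups were outside this comparison. Mpc2 was at 191.05 to 217.48 RPKM in HFD_STZ_control_FMT, above every control and HFD_STZ library, and at 181.04 to 216.02 in HFD_STZ_AOS_FMT. The call held in 12 of 20 alternatives, with an adjusted p of 0.0554 without the libraries high in Crisp1. It was lost, at 0.0563 to 0.0787, without control replicate 1 or 2, AOS replicate 1 or 3, HFD_STZ replicate 1 or 2, or HFD_STZ_AOS replicate 1. Mpc2 was also among the genes most like the mean of the 10.

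In the main effect of HFD_STZ 1 of the 13 passed as higher and 0 as lower, against 333 and 63 of all 13874 genes. Pdk3, a kinase that inactivates pyruvate dehydrogenase, was at 51.29 ± 1.55 against 46.55 ± 1.91 RPKM (n = 6 each), a difference of 0.14 ± 0.03 with an adjusted p of 0.0435 by limma. This held in 3 of 20 alternatives, with an adjusted p of 0.155 under median-ratio scaling and of 0.0531 to 0.118 without any single library other than HFD_STZ_AOS replicate 2. In the transfer groups Pdk3 was at 47.94 ± 1.06 (HFD_STZ_AOS_FMT) and 47.33 ± 2.83 RPKM (HFD_STZ_control_FMT, n = 3 each). Pdhb, the partner of the E1 alpha subunits, lay at 101.9 to 122.5 RPKM, close to the level of Pdha2, while Pdha1 lay at 2.02 to 3.26.

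**Figure D5:**
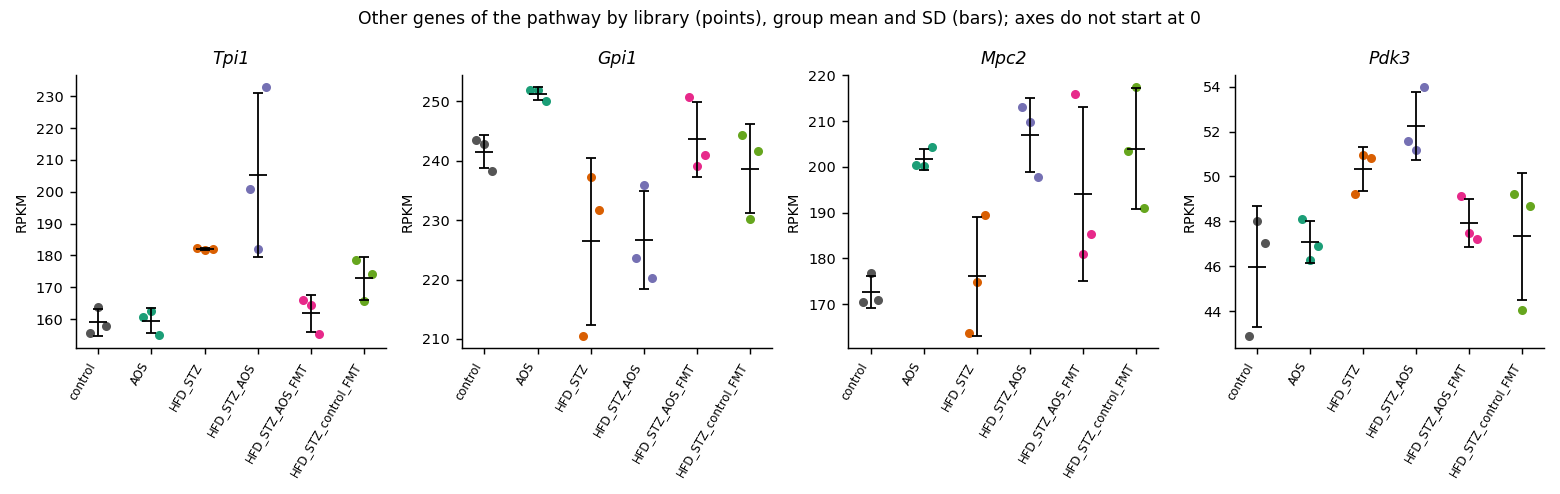
RPKM (vertical axis, not starting at 0) of 4 other pathway genes in each library (points) by group, with the group mean and SD (n = 3, bars). Tpi1 is 181.79 or more in HFD_STZ and HFD_STZ_AOS and at most 163.76 in control and AOS, and Mpc2 lies higher in every library of AOS and HFD_STZ_AOS than in any of control and HFD_STZ.

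In both main effects, 0 genes passed of 8 tested transporters of glucose and lactate, 3 other lactate dehydrogenase genes, 8 genes of glycerol metabolism and 10 genes of the fibrous sheath. Ldhal6b, a further testis lactate dehydrogenase, lay at 531.1 to 595.4 RPKM, about the level of Ldha, and Gykl1, a glycerol kinase relative, at 314.7 to 355.4, about that of Gk2. Slc2a5, a fructose transporter, lay at 285.4 to 312.6 RPKM beside Slc2a3. The median differences of these 4 lists in the main effect of AOS were -0.05, -0.01, -0.05 and 0.01, beside 0.05 for the 10 genes and -0.02 for all genes.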

How the data were processed

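A single table of RPKM by gene symbol and library was deposited; its unit was inferred from the values. Bowtie 0.12.2 and build mm10 are named per the submitters' processing notes; the counting tool, annotation and use of strand are not given in the sources used here. RPKM divides by gene length and library total, so a shift in abundant transcripts moves all other values. Of 20985 rows, 6 with 3 repeated symbols were left out, and 26 rows held dates in place of symbols. Groups came from the labels.

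Values were taken as log2(RPKM + 1), and genes reaching 1 RPKM in 3 or more libraries entered a fit by limma 3.58.1 (R 4.3.3) (1 coefficient per group over all 18 libraries, prior variance trended on the mean, two-sided, Benjamini-Hochberg at 0.05). Fold changes on this scale understate those of low genes. Lengths and positions came from GENCODE vM21; 96.5% of symbols had a length. RefSeq gave a promoter window for 8 of the 10 genes. The test was checked on simulated data. Tables were made with Python 3.11.15 (pandas 2.3.3, numpy 2.4.6) and plots with matplotlib 3.10.9.

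All 10 genes are named, and of the pathway and marker lists some of those with the smallest p in a comparison. One gene of the glycolysis list is not reported here, nor are that list's counts in the transfer comparisons and the F test. The genes and the lists were chosen with earlier results of these data known. Alternatives were median-ratio scaling, no filter, a pseudocount of 0.1, robust empirical Bayes, only the groups compared, a block for the replicate number, removal of a trend on transcript length (lowess, span 0.3) and omission of each library. The omission of the 4 libraries high in Crisp1 was chosen after seeing the data.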

Additional observations from a re-analysis of the deposited data

How the results depend on the processing

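The count of the 10 genes called in the main effect of AOS, 1 as reported (Gapdhs), was 0 with median-ratio scaling (adjusted p = 0.0611), 0 without the filter on low values (0.0755), 0 with the trend on transcript length removed (0.062) and 0 without the libraries high in Crisp1 (0.0869); the causes were not tested. It was 0 to 1 when single libraries were left out, and stayed at 1 without HFD_STZ replicate 3. The log2 difference of Gapdhs was 0.13 to 0.17 over its 20 alternatives. In the other 9 comparisons 0 of the 10 genes were called under every alternative run. Of 90 differences of the 10 genes, 27 changed sign under at least 1 alternative; none was called, and the largest was 0.10 in size. Over all genes, the main effect of AOS called 325 genes (180 higher, 145 lower), 168 with median-ratio scaling (116 and 52), 142 without the filter, 192 with the length trend removed, 565 with only the groups compared, 76 without the libraries high in Crisp1 and 0 to 374 with single libraries left out. The main effect of HFD_STZ called 396 (333 and 63), 257 with median-ratio scaling (145 and 112), 205 without the filter, 133 with only the groups compared, 36 without the libraries high in Crisp1 and 110 to 695 with single libraries left out. Without HFD_STZ_AOS replicate 2 the latter count was 695, and it was 110 to 180 without any control replicate, AOS replicate 1 or 3, HFD_STZ replicate 1 or 3, or HFD_STZ_AOS replicate 3. The F test called 6 genes, 18 without the filter, 11 with robust empirical Bayes, 10 with the replicate block and 3 to 157 with single libraries left out, most without HFD_STZ_AOS replicate 2 (157), HFD_STZ_AOS_FMT replicate 1 (117) and AOS replicate 2 (36).

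The replicate numbers did not pair the libraries: r of same-numbered libraries' deviations ran from -0.25 to 0.41, over 0.1 in 11 of 45 pairs, and 8 of 18 libraries correlated best with their own number. With the replicate block the main effect of AOS called 1 of the 10 genes (Gapdhs, adjusted p = 0.0417) and 418 of all genes. The calls of Gpi1 (adjusted p = 0.0566) and Pdk3 (0.0525) in the main effect of HFD_STZ were lost under it. Depth is known only roughly, and 3 libraries per group limit what could be detected, most of all for Eno4.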
